A study of Equus caballus with 8 samples.

Results

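The metalloproteinases and the proteins that inhibit them were examined after culture with TGF-β2 in BM-MSCs of horses, the mesenchymal stem cells that adhere and grow out of bone marrow in culture. The genes were every row of the deposited table whose symbol begins with MMP, ADAM, ADAMTS, ADAMTSL or TIMP followed by a digit. There were 49 such genes among the 15266 named genes of the table: 15 MMP, 12 ADAM, 14 ADAMTS, 4 ADAMTSL and 4 TIMP genes. Sternal marrow of 4 horses, D, J, L and W, was split between a culture in standard medium (untreated) and a culture with 1 ng/ml recombinant human TGF-β2 (treated), so that each horse gave 1 library of each kind, 8 in all. The horses were healthy adult Thoroughbreds or Thoroughbred crosses, with as many mares as geldings. The study gives an age range for its horses as a whole, but the age of each donor is not given in the sources used here. Both cultures were in low glucose DMEM with fetal bovine serum, antibiotics and basic fibroblast growth factor, which the untreated cells therefore received as well. The labels state exposure from isolation to passage 3 or 4, whereas the methods state 3 passages, and neither gives the passage of a single library. The cells were primary cultures without sorting, and culture was not repeated within a horse.

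Matrix metalloproteinases (MMPs) are zinc-dependent enzymes that are made as inactive precursors and that together can cut most proteins of the extracellular matrix. ADAMs are membrane-anchored relatives, several of which cut growth factors, cytokines and adhesion molecules off the cell surface, while others have lost the protease site and act in cell adhesion. ADAMTS enzymes are secreted, and are known for cutting proteoglycans such as aggrecan and versican and for trimming procollagen, and the ADAMTS-like (ADAMTSL) proteins have the matrix-binding part without the protease. The 4 tissue inhibitors of metalloproteinases (TIMPs) block these enzymes, with TIMP3 acting on several ADAM and ADAMTS enzymes as well as on MMPs. In tendon this system is known for the turnover of collagen and proteoglycan, and TGF-β is a classical regulator of it.

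Values are normalized counts, the reads of a gene divided by a size factor of the library, and they are not divided by gene length, so that levels are compared between libraries and not between genes. Between 39184554 and 57228675 reads were counted per library. A gene was tested where 4 or more of the 8 libraries had 10 or more normalized counts, with limma on log2(normalized count + 1), with the horse as a block. A gene was called higher or lower at a Benjamini-Hochberg adjusted p under 0.05, over all 14907 genes tested, and an absolute log2 fold change over 1. Fold changes on this scale understate the change of genes with few reads. Of 7 stromal markers 6 were listed. Their sum was 161816 to 355467 normalized counts in the untreated and 172849 to 271837 in the treated libraries. This sum covers opposite changes. THY1 (CD90) was called lower (log2 fold change -2.21). ITGB1 was higher in all 4 horses (0.91, adjusted p from limma 0.0159). PDGFRB and ENG were lower in all 4 (-0.71 and -0.42, adjusted p 0.0367 and 0.0409). ITGB1, PDGFRB and ENG did not reach the fold threshold. CD44 and NT5E were not called (adjusted p 0.135 and 0.735). Of 10 leukocyte and macrophage markers, 7 were listed, with sums of 526 to 2624 in the untreated and 399 to 746 in the treated libraries, mostly CD68. Of these 7, CD163 and TYROBP were under the filter, and none of the other 5 was called with all 4 horses. The 3 listed osteoclast markers of 6 summed to 24815 to 32073 untreated and 11189 to 17211 treated, nearly all CTSK (cathepsin K). The sum thus describes CTSK rather than the list. CTSK and ACP5 were called lower, and OSCAR was not called (adjusted p from limma 0.189). The call of CTSK was lost without D (adjusted p 0.0528) or L (log2 fold change -0.89). That of ACP5 was lost without D or W (adjusted p 0.0913 and 0.141) or without the block (0.133). The 3 listed endothelial markers of 6 summed to 32.5 to 395 normalized counts in the untreated and 501 to 966 in the treated libraries, mostly ERG. ERG and KDR were called higher, and CDH5 was not called (adjusted p from limma 0.264). KDR had only 1.01 to 14.8 normalized counts untreated and 15.5 to 40.7 treated, so it passed the filter through the treated libraries. The call of KDR was lost without D (adjusted p 0.0542) and that of ERG without D, L or W (0.0789, 0.0522 and 0.087). The part of other cell types in the results below was not tested. The untreated library of horse J differed from the other untreated libraries in several of the genes below, and horse J moved against all 3 other horses in 16.5% of all tested genes, against 4.55%, 7.52% and 5.33% for D, L and W.

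Of the 49 genes, 46 passed the filter. MMP13, MMP25 and ADAMTS20 did not. In ADAMTS16 no untreated library reached 10 normalized counts, so it passed through the treated libraries alone, and in ADAM22 and MMP1 only 1 untreated library did, so the shares below describe the tested genes and are not support for a change of the family. Treatment was followed by higher calls for 12 of the 46 genes and lower calls for 7, together 41.3%, where 14.1% of all tested genes were called (6.83% higher and 7.31% lower). Without a term for the horse 13 of the 46 were called, 8 higher and 5 lower, against 11.5% of all genes, and all 13 were among the 19. All 19 moved the same way in all 4 horses, and in 13 of them the values of the 2 groups had no overlap. The paired call itself favours such genes. Of the 46 tested genes, called or not, 28 moved the same way in all 4 horses, 60.9%, beside 51.9% of all tested genes. Over the 46 genes the treated libraries lay above all untreated ones in 9 and below them in 8, that is 19.6% and 17.4%, beside 13.9% in each direction for all tested genes. The median absolute log2 fold change was 1.08 for the 46 genes and 0.35 for all tested genes, while the median signed change was 0.00 and 0.01. The number of calls depended on which horses were included. Without horse D, and likewise without horse W, 7 genes were higher and 3 lower, while calls over all genes went down to 1173 and 1080. Without horse J there were 10 higher and 9 lower beside 2442 calls over all genes, and without L 12 and 8 beside 1875. ADAM19, ADAM23, ADAM33, ADAMTS5, ADAMTS6, ADAMTS14, ADAMTS16 and MMP17 were called under each of 14 alternative settings with all 4 horses and with any 1 horse left out. Among these settings, the removal of the fold threshold could not lose a call.

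**Figure D1:**
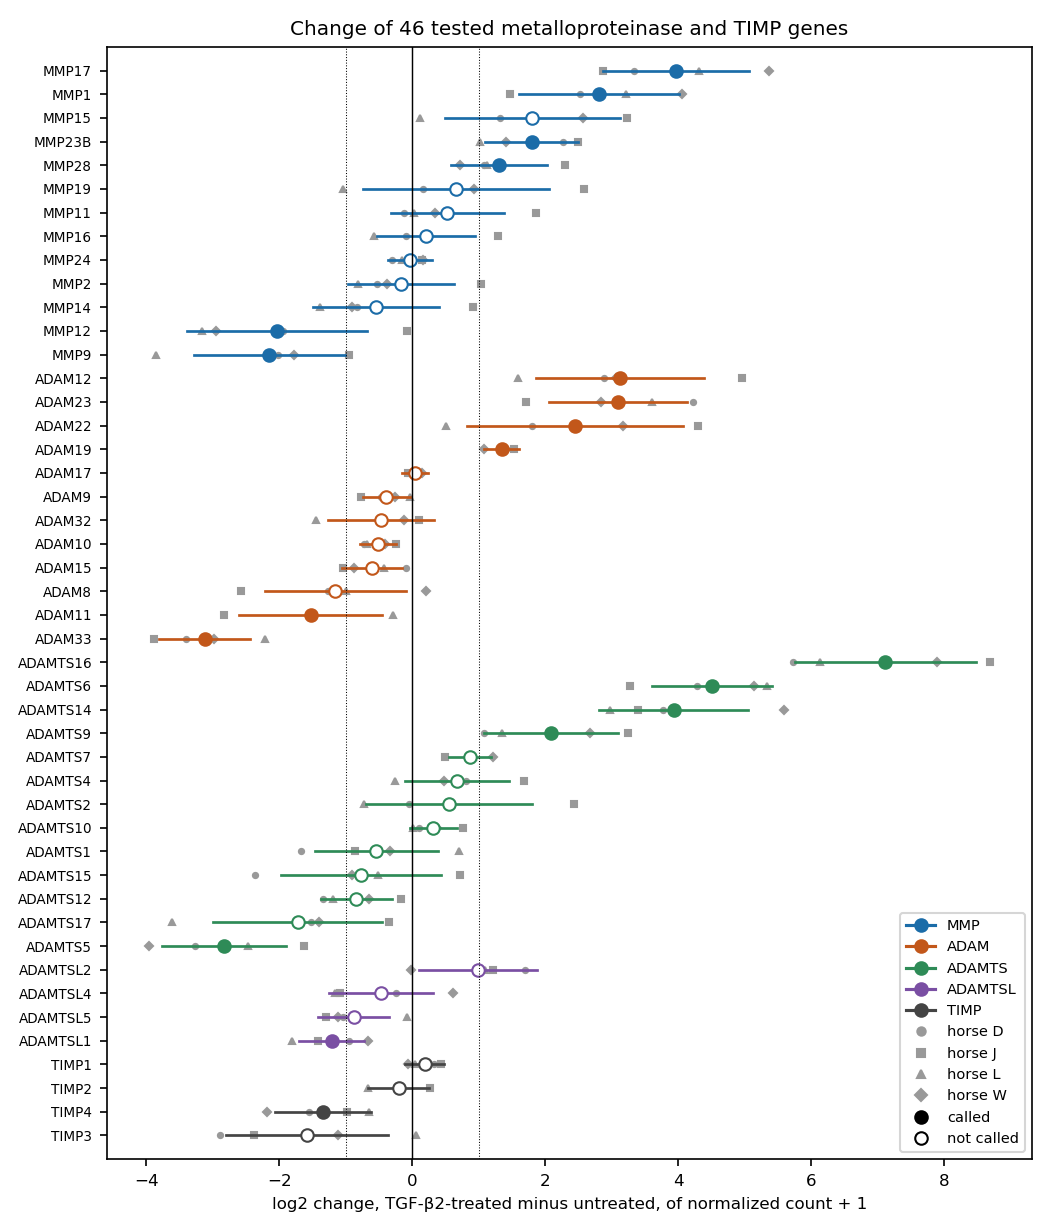
Log2 change of each of the 46 tested genes (x axis, treated minus untreated, of normalized count + 1), grouped by family and ordered by size. Large points are the limma estimates with 95% confidence intervals, filled where the gene was called, and the small grey symbols are the 4 horses; the called genes run from -3.12 for ADAM33 to 7.12 for ADAMTS16, and the 4 TIMPs lie at or below 0.19.

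Among the collagenases, which can cut intact fibrillar collagen, MMP1 and MMP13 were listed. MMP1 had few reads, and MMP13 had few in the treated libraries. MMP1 (interstitial collagenase) had 0, 12.1, 8.48 and 0 normalized counts in the untreated libraries of horses D, J, L and W, the order used throughout, and 4.76, 35.3, 87.4 and 15.6 in the treated ones. It was higher with treatment in every horse, although treated D lay below untreated J and L. The log2 fold change of MMP1 was 2.82 (standard error 0.48), and limma gave an adjusted p of 0.0117. Over the group these were 27 untreated and 126 treated reads, and of the latter 76 came from horse L. The call was lost without the block (adjusted p = 0.112), without horse D (0.0526) and without horse W (0.0545).

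MMP13 (collagenase-3) stood at 261, 3.37, 233 and 16.2 normalized counts in the untreated and 0, 2.14, 1.15 and 0 in the treated libraries, and thus under the filter. Horses D and L held nearly all of its reads, 568 in the untreated libraries against 3 in the treated ones. The ratio of untreated to treated MMP13 was 141, with an exact 95% interval of 47.9 to 684 that covers counting error only and not the spread between horses. It was 66.7 without horse D and 448 without J. Fitted over all listed genes without the filter, MMP13 was called lower, with a fitted log2 change of -4.85 (standard error 1.26, adjusted p 0.0377 from limma) that depends on the pseudocount.

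The gelatinases MMP2 and MMP9 cut denatured collagen and basement membrane collagen. For MMP9 (gelatinase B) the values were 1934, 3748, 3706 and 2264 normalized counts untreated and 478, 1947, 256 and 659.6 treated. MMP9 fell in each horse, most in L and least in J, and treated J overlapped with untreated D. Its log2 fold change of -2.15 had an adjusted p of 0.0209 from limma, which was 0.0829 without horse D and 0.083 without horse W. MMP2 (gelatinase A) had 67641, 36170.4, 91664 and 72333 normalized counts untreated and 46962, 74399.8, 52285 and 55925 treated. It was lower in treated D, L and W and higher in treated J, whose untreated library held the lowest value of the 8. The log2 fold change of MMP2 was -0.17, with a 95% confidence interval of -0.97 to 0.63 and an adjusted p of 0.723 from limma. Without horse J it was -0.57 (adjusted p 0.039), short of the fold threshold, and without horse L it was 0.05 (adjusted p 0.937).

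MMP14 (MT1-MMP) is the membrane-type enzyme known for activating the MMP2 precursor at the cell surface with TIMP2 as a bridge. It changed in the same direction as MMP2 in each horse, though the order of the horses differed within each group. MMP14 had 53815, 18361, 51597 and 35178 normalized counts untreated and 30395, 34811, 19658 and 18814 treated. The log2 change was -0.82, -1.39 and -0.90 in D, L and W, but 0.92 in J. MMP14 was not called (log2 fold change -0.55, adjusted p from limma 0.317), but it was called lower without horse J, at -1.04 and an adjusted p of 0.00751.

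Of the 6 membrane-type MMPs listed, 5 were tested and 1, MMP17, was called, where 14.1% of all tested genes were. MMP17 (MT4-MMP) is anchored by a glycolipid rather than a membrane-spanning segment. Its normalized counts were 14.8, 19.5, 21.7 and 8.12 in the untreated and 158, 149.9, 451 and 375 in the treated libraries, which did not overlap. The means of 16.0 ± 6.01 and 283 ± 153 (SD, n = 4) differed 17.7-fold, and the log2 fold change was 3.97 (standard error 0.44, adjusted p from limma 0.00391). MMP15 (MT2-MMP) had 30.5, 14.1, 161 and 39.6 normalized counts untreated and 77.4, 141, 176 and 239 treated, higher in all horses but only by 0.13 in L. Its log2 fold change of 1.81 had an adjusted p of 0.0504, just outside the threshold, and of 0.0277 without horse L, where it was called. It was also called under TMM scaling, at a pseudocount of 5 and by DESeq2 with the horse (adjusted p 0.00378), but not by DESeq2 without it (0.132). MMP16 and MMP24, both membrane-spanning, had log2 fold changes of 0.21 and -0.03 with adjusted p of 0.624 and 0.873 from limma. MMP25, the leukocyte-type MT6-MMP, was under the filter and is described with the leukocyte markers.

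MMP23B, MMP28, MMP12 and MMP19 fall outside these classes, and MMP11 (stromelysin-3) is stromelysin-like. MMP23B, a membrane-held enzyme without the usual prodomain switch, had 61.8, 49.8, 293 and 575 normalized counts untreated and 303, 285, 593 and 1538 treated. MMP28 (epilysin) had 52.2, 24.9, 155 and 274 untreated and 112, 126, 340.3 and 452 treated. In both genes the untreated libraries of L and W already lay well above those of D and J, and each horse was higher after treatment, so that the groups overlapped while the paired changes did not change sign.

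The log2 fold change of MMP23B was 1.80 (standard error 0.28), with adjusted p of 0.0093 in the paired limma fit and 0.175 without the block. Without horse D it was 0.0507. For MMP28 the estimate was 1.31 (standard error 0.29), with adjusted p of 0.0236 and, without the block, 0.269. Leaving out any 1 horse ended the call of MMP28, with adjusted p of 0.0819, 0.0115, 0.0644 and 0.066 without D, J, L and W or a fold change under the threshold. MMP11 had log2 fold changes of -0.13 to 1.86 in single horses, and MMP19 of -1.04 to 2.59. Neither was called, with adjusted p of 0.286 and 0.408 from limma.

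**Figure D2:**
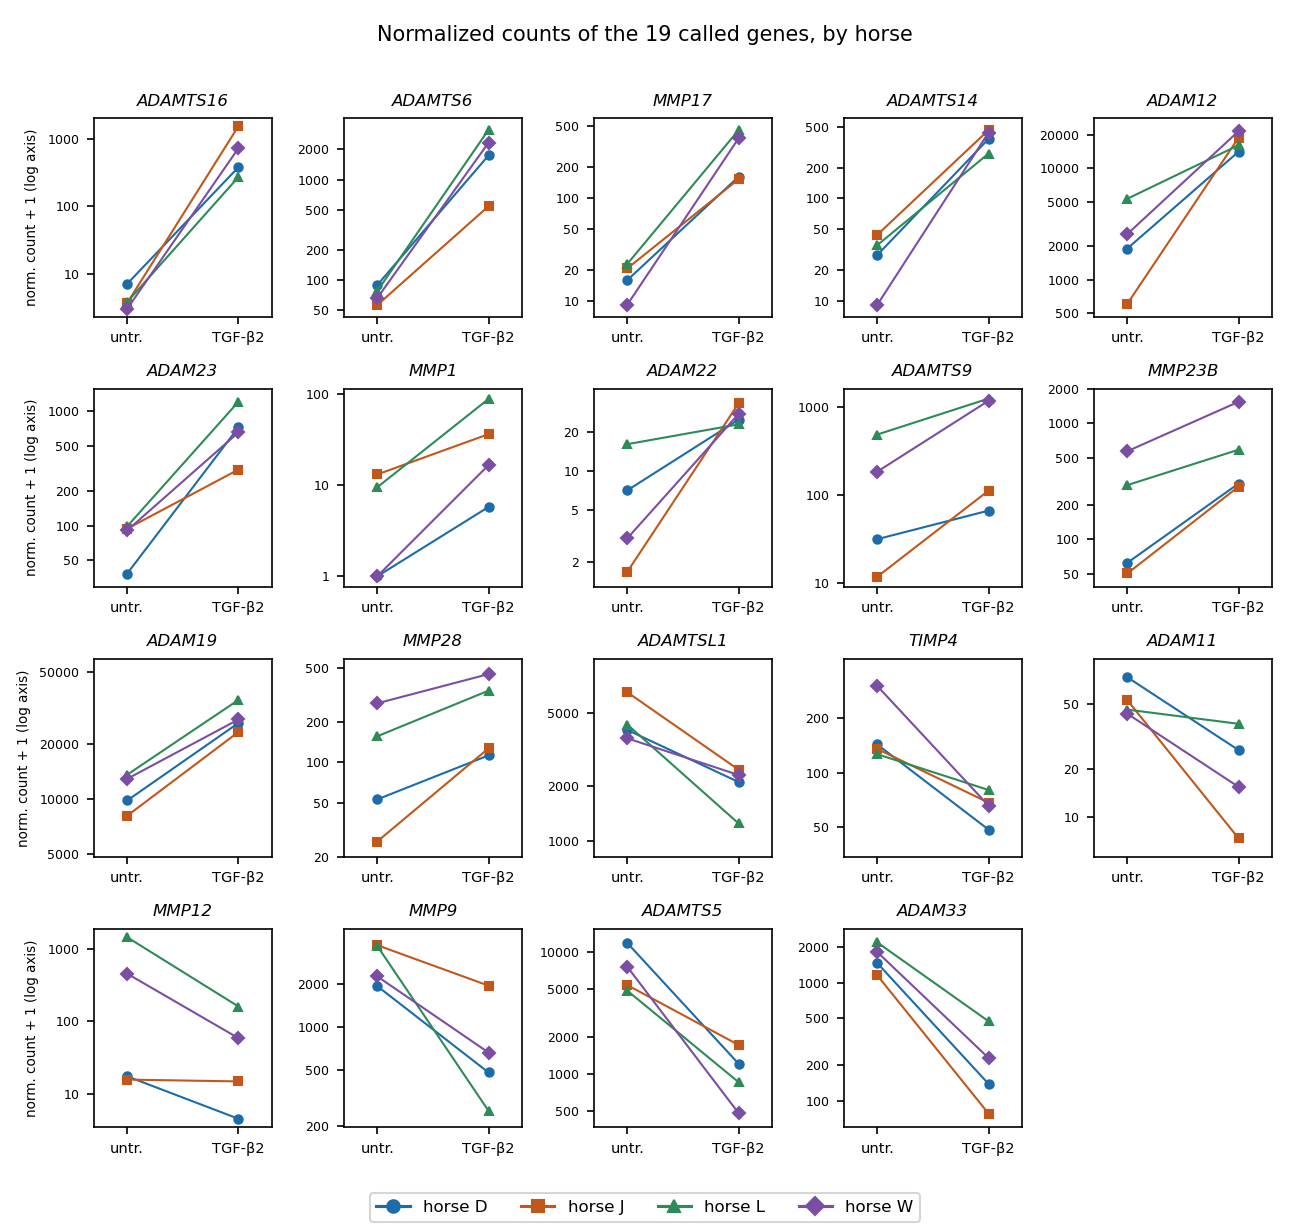
Normalized count + 1 (log axis, scaled per panel) of the 19 called genes in the untreated and the treated library of each horse, with 1 line per horse, ordered from the largest increase to the largest decrease. Every line of a panel runs in the same direction, from ADAMTS16, with 2.03 to 6.09 normalized counts untreated and 269 to 1527 treated, to ADAM33.

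Of the 8 listed ADAMs with a working protease site, ADAM12 and ADAM19 were called higher and ADAM33 lower. Over all tested genes, 14.1% were called. ADAM12 (meltrin alpha), an enzyme of activated mesenchymal cells that cuts insulin-like growth factor binding proteins, had 1902, 606, 5323 and 2564 normalized counts untreated and 14098, 18826, 16119.8 and 21553 treated. The treated libraries were close together, within a 1.53-fold range, whereas the untreated ones spanned 8.78-fold, with J lowest and L highest. The means of 2599 ± 1989.9 and 17649 ± 3244 differed 6.79-fold, and the log2 fold change was 3.13 (standard error 0.51, adjusted p from limma 0.0104). That p was 0.0518 without horse D and 0.0611 without W.

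ADAM19 (meltrin beta), which can shed neuregulin, had 9841, 8115, 13638 and 12941 normalized counts untreated and 26236, 23421, 35121 and 27428 treated. Its change was of nearly the same size in each horse, 1.08 to 1.53 on the log2 scale, and the groups did not overlap. It rose by 1.35 in the limma fit (standard error 0.11), for which the adjusted p was 0.00185. ADAM33, known as an asthma susceptibility gene expressed in mesenchymal cells, had 1463, 1152, 2188 and 1814 normalized counts untreated and 138, 77.1, 470.2 and 229 treated. Every horse was lower, without overlap and 7.23-fold between the means. ADAM33 fell by 3.12 on the log2 scale (standard error 0.28, adjusted p 0.00237).

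ADAM10 and ADAM17 are the main sheddases of the cell surface, for Notch receptors and for tumour necrosis factor and ligands of the epidermal growth factor receptor. ADAM10 had 10168, 8267, 7476 and 8102 normalized counts untreated and 6159, 6958, 4687 and 6113 treated, and the treated libraries all lay below the untreated ones. Its log2 fold change of -0.51 (adjusted p 0.021 from limma) did not reach the fold threshold. ADAM17 had 2687, 2702, 3417 and 3112 untreated and 2822, 2582, 3394 and 3464 treated, which amounts to a log2 fold change of 0.04 with a 95% confidence interval of -0.16 to 0.23. ADAM9 and ADAM15 had log2 fold changes of -0.39 and -0.61, lower in all 4 horses, with adjusted p of 0.0935 and 0.0541 from limma, and were not called.

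Of the 4 listed ADAMs without a working protease site, 3 were called, where 14.1% of all tested genes were, and 2 of these, ADAM11 and ADAM22, were lost in 3 of the 4 fits that left out a horse. ADAM23, an adhesion protein that binds integrins and is best known in neurons, had 37.4, 93.6, 98.0 and 90.3 normalized counts untreated and 721, 308, 1206 and 651 treated. It rose 9.04-fold between the means, and by 3.10 on the log2 scale (standard error 0.42, adjusted p from limma 0.00623), with the smallest change in J. ADAM22, a receptor of the secreted neuronal protein LGI1, had few reads, 6.09, 0.673, 15.1 and 2.03 normalized counts untreated and 23.8, 32.1, 21.8 and 26.4 treated. The log2 fold change of ADAM22 was 2.45 (standard error 0.66, adjusted p 0.0399). ADAM11, also a largely neuronal protein, had 72.2, 51.8, 45.2 and 42.6 untreated and 25.01, 6.42, 36.8 and 14.4 treated, a log2 fold change of -1.53 with an adjusted p of 0.0461. Neither ADAM11 nor ADAM22 had overlapping groups. The adjusted p without horses D, J and W was 0.108, 0.0579 and 0.155 for ADAM22 and 0.146, 0.0594 and 0.15 for ADAM11. With edgeR on the recovered reads it was 0.0616 and 0.0556, and without the block limma gave ADAM11 0.0582. ADAM32 was not called, with log2 changes of -1.44 to 0.10 in single horses.

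The ADAMTS family held the gene with the largest change of all 49. ADAMTS16, a secreted protease with few known substrates, fibronectin among them, had 6.09, 2.69, 2.83 and 2.03 normalized counts untreated and 376, 1527, 269 and 719.6 treated. At most 7 reads were counted in any untreated library. Treated J was the highest, with 1527, and treated L the lowest, with 269. The log2 fold change of ADAMTS16 was 7.12 (standard error 0.55), and the adjusted p from limma was 0.00175. ADAMTS17, which is linked to an inherited short-stature syndrome, was lower in all 4 horses, with 498, 393, 2565 and 826 normalized counts untreated and 173, 309, 208 and 314 treated. The groups of ADAMTS17 did not overlap, but its change ran from -3.62 in L to -0.34 in J, and the adjusted p was 0.0529, so that it was not called. Without horse J it was called, with an adjusted p of 0.0198, as it was by DESeq2 with the horse (0.00252) and without it (0.00164).

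ADAMTS6 and ADAMTS10 are the paralogous pair associated with fibrillin microfibrils. For ADAMTS6 there were 87.9, 55.2, 76.3 and 64.9 normalized counts untreated and 1738, 542, 3129 and 2329.5 treated. The means of 71.1 ± 14.1 and 1935 ± 1089.6 (SD, n = 4) differed 27.2-fold, with a log2 fold change of 4.51 (standard error 0.36, adjusted p from limma 0.00199). The untreated libraries were alike, within a 1.59-fold range, and treated J was the lowest of the treated ones. ADAMTS10 had 2730.3, 1849, 3507 and 3438 normalized counts untreated and 2927, 3159, 3548 and 4473 treated, a log2 fold change of 0.32 with an adjusted p of 0.146, and was not called.

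ADAMTS2, ADAMTS3 and ADAMTS14 are the procollagen N-proteinases, which remove the amino-terminal propeptide of fibrillar procollagens, and ADAMTS2 and ADAMTS14 were listed. ADAMTS14 had 27.0, 43.1, 33.9 and 8.12 normalized counts untreated and 381, 465, 274 and 439.7 treated, 13.9-fold between the means. Its log2 fold change was 3.94 (standard error 0.45, adjusted p from limma 0.00423), with the largest change in W, whose untreated library was the lowest. ADAMTS2 had 9291, 2080.4, 17236 and 10632 untreated and 9011, 11257, 10457 and 15428 treated. Its log2 change was 2.44 in J and -0.72 in L, and the fitted log2 fold change of 0.55 had an adjusted p of 0.438.

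Of 6 listed proteoglycan-cleaving enzymes, 5 were tested. ADAMTS5 (aggrecanase-2), a main aggrecanase of cartilage, fell from 11788, 5348, 4816 and 7546 normalized counts untreated to 1222, 1739, 865 and 483 treated. The means of 7374 ± 3171 and 1077 ± 534 (SD, n = 4) differed 6.85-fold without overlap of the groups, and the log2 fold change was -2.83 (standard error 0.38, adjusted p from limma 0.00605). ADAMTS9, which cuts versican and aggrecan, was higher in every horse, with 30.5, 10.8, 487 and 184 normalized counts untreated and 65.5, 111, 1251 and 1182 treated. Untreated libraries of ADAMTS9 spanned 45.2-fold, with L and W above D and J in each group. Its log2 fold change of 2.09 had an adjusted p of 0.0166 in the paired limma fit, 0.32 without the block and 0.087 without horse W.

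ADAMTS4 (aggrecanase-1) was not called, with 308, 240.4, 473 and 291 normalized counts untreated and 541, 771, 395 and 405 treated. ADAMTS1, another versican-cleaving enzyme, was not called either, with 1536, 827, 514 and 643 untreated and 484, 455, 836 and 513 treated. Horse L moved against the other horses in both. The log2 fold changes were 0.68 for ADAMTS4 and -0.54 for ADAMTS1, with 95% confidence intervals of -0.10 to 1.45 and -1.47 to 0.39. ADAMTS1 and ADAMTS5 are neighbours on chromosome 26 in the RefSeq gene table of the TB-T2T assembly, with no other protein-coding gene between them. MMP12 and MMP13 are neighbours on chromosome 7 in the same way. ADAMTS15 had log2 changes of -2.36 to 0.72 in single horses (adjusted p 0.272 from limma), and ADAMTS20 had at most 79.2 normalized counts, in untreated L, and was under the filter.

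ADAMTS7 and ADAMTS12 cut cartilage oligomeric matrix protein (COMP), a component of tendon. They went in opposite directions, each in all 4 horses and each short of a 2-fold change. ADAMTS7 had 3051, 4129.8, 3149 and 2942 normalized counts untreated and 5581, 5804, 5931 and 6816 treated, a log2 fold change of 0.87 (adjusted p 0.00798 from limma) with no overlap. ADAMTS12 had 1155, 439.6, 1723 and 1016 untreated and 457, 391, 753 and 646 treated, a log2 fold change of -0.84 (adjusted p 0.0356). Without horse J, ADAMTS12 passed the fold threshold, at -1.06 with an adjusted p of 0.00794.

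The ADAMTS-like proteins carry no protease, and several bind fibrillin microfibrils. ADAMTSL1 (punctin) was the member called of the 4 listed, where 14.1% of all tested genes were called. It had 4055, 6532, 4341 and 3646 normalized counts untreated and 2098, 2452, 1242 and 2292 treated. It fell by 1.21 on the log2 scale (standard error 0.20, adjusted p from limma 0.0103), without overlap of the groups. ADAMTSL5 was lower in all 4 horses, with a log2 fold change of -0.88 (adjusted p 0.0308), and it was called without horse L, at -1.15 (adjusted p 0.00827). ADAMTSL4 was not called (log2 fold change -0.47, adjusted p 0.302). ADAMTSL2, which had 7.54 to 41.7 normalized counts in the 8 libraries, was not called (log2 fold change 1.00, adjusted p 0.085).

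Of the 4 inhibitors, TIMP4 was called lower and none higher, where 6.83% of all tested genes were called higher and 7.31% lower. TIMP4 had 142, 134, 125 and 298 normalized counts untreated and 47.6, 67.4, 79.3 and 64.9 treated. Untreated W stood above the other untreated libraries, and all treated libraries lay below all untreated ones. The log2 fold change of TIMP4 was -1.34 (standard error 0.29), and its adjusted p was 0.0223 from limma, 0.0983 without horse D and 0.0818 without W. TIMP3, the matrix-bound inhibitor, had 31621, 31771, 18156 and 48564 untreated and 4243, 6127, 18934 and 22412 treated. The log2 change was -2.90, -2.37 and -1.12 in D, J and W, and 0.06 in L. TIMP3 was not called by limma (log2 fold change -1.58, standard error 0.49, adjusted p 0.0595), but without horse L it was, with an adjusted p of 0.0239. DESeq2 also called TIMP3 lower, with an adjusted p of 0.00253 with the horse as a term and of 0.0445 without it. The study reports both TIMP3 and TIMP4 as downregulated.

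TIMP1 had 20157, 28088, 14818 and 20748 normalized counts untreated and 25270.2, 38075, 15255 and 19911 treated. TIMP2, which also bridges MMP14 and the MMP2 precursor, had 80801, 46177, 102979 and 85394 untreated and 68504, 55879, 64733 and 75733 treated. The log2 fold changes were 0.19 for TIMP1 and -0.20 for TIMP2, with 95% confidence intervals of -0.11 to 0.49 and -0.66 to 0.26, so that neither interval reached a 2-fold change. TIMP2 was lower in D, L and W and higher in J, in the way of MMP2 and MMP14. These 3 were among 5 of the 46 genes in which J moved against the other horses, 10.9%, beside 16.5% of all tested genes.

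**Figure D3:**
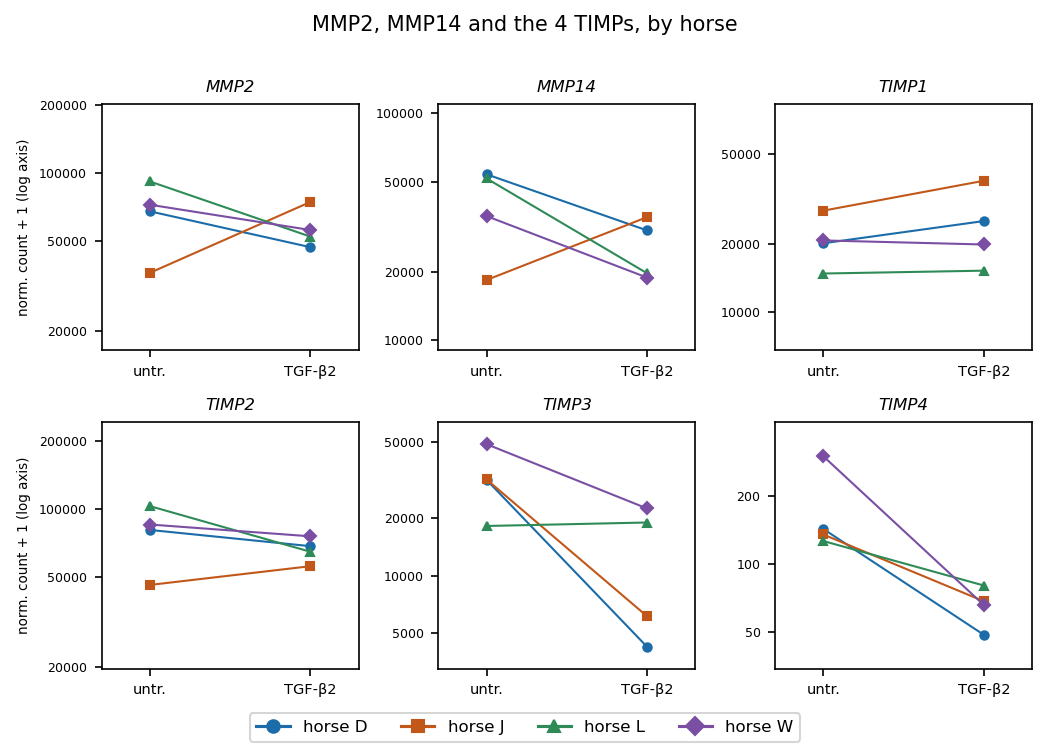
Normalized count + 1 (log axis, scaled per panel) of MMP2, MMP14 and the 4 TIMPs, untreated and treated, with 1 line per horse. The line of horse J rises in MMP2, MMP14 and TIMP2 where those of D, L and W go down, the line of horse L is level in TIMP3, and TIMP4 goes down in all 4 horses.

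Ratios of an enzyme to an inhibitor within a library do not depend on how libraries are scaled, although they mix 2 gene lengths. The pairs were chosen after the values were seen and carry no test. MMP9 to TIMP1 was 0.096, 0.133, 0.25 and 0.109 in untreated D, J, L and W and 0.0189, 0.0511, 0.0168 and 0.0331 in the treated libraries, lower in all 4 horses and without overlap. MMP2 to TIMP2 was 0.837, 0.783, 0.89 and 0.847 untreated and 0.686, 1.33, 0.808 and 0.738 treated, close between horses except in treated J. MMP14 to TIMP2 was 0.666, 0.398, 0.501 and 0.412 untreated and 0.444, 0.623, 0.304 and 0.248 treated, higher in J and lower in the others. ADAMTS5 to TIMP3 was 0.373, 0.168, 0.265 and 0.155 untreated and 0.288, 0.284, 0.0457 and 0.0215 treated. It was lower in L and W, where the log2 change of TIMP3 was smallest in size, slightly lower in D and higher in J.

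MMP12 (macrophage elastase) is a product of macrophages, and it had 16.5, 14.8, 1429 and 450.5 normalized counts untreated and 3.57, 13.9, 159 and 57.7 treated. Horses L and W held nearly all of it in both groups, and the log2 change in J was -0.08. It fell by 2.03 on the log2 scale (standard error 0.54), at an adjusted p of 0.0399 from limma, but 0.431 without the block, and 0.126, 0.124 and 0.16 without D, L and W. The macrophage markers CSF1R and TYROBP were also highest in L and W among the untreated libraries, with 7.83, 1.35, 147 and 62.9 normalized counts for CSF1R and 1.74, 1.35, 73.5 and 33.5 for TYROBP. In the treated libraries CSF1R had 1.19, 3.21, 34.5 and 20.4, and TYROBP had 0, 2.14, 40.2 and 6.01. CD163, a defining macrophage receptor, had 7.83, 0, 31.1 and 45.7 untreated and 0, 1.07, 8.05 and 9.61 treated. ITGAM had 18.3, 20.9, 38.6 and 51.7 untreated and 10.7, 28.9, 36.8 and 27.6 treated. Among the untreated libraries L and W were thus the highest for CD163 and ITGAM as well. The list did not run as one, since CD68, PTPRC and ITGAL were highest in untreated J. CSF1R was not called with all 4 horses, but was called lower without J (-1.88, adjusted p from limma 0.00864). ACP5, an osteoclast enzyme, had 12.2, 5.39, 145 and 156 untreated and 3.57, 1.07, 1.15 and 26.4 treated, and was called lower. The part of these cells in the result for MMP12, and for MMP9, which macrophages and osteoclasts also make, was not tested, and fewer cells of a type cannot be told apart from less RNA per cell in bulk samples.

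ADAM8 and MMP25, both known from leukocytes, were chosen here after their values were seen. ADAM8 had 2033, 5957, 384 and 150.2 normalized counts untreated and 849, 1003, 192 and 174 treated, and was highest in untreated J. Its log2 fold change of -1.15 had an adjusted p of 0.093 from limma and was not called. DESeq2 with the horse gave 0.018 and a call. MMP25 had 0, 238, 7.54 and 18.3 untreated and 0, 0, 1.15 and 1.20 treated, with 379 reads in the untreated libraries, mostly of J, against 2 in the treated ones. The ratio was 141, with an exact 95% interval of 38.7 to 1166 for counting error only. Without horse J, which held 353 of the untreated reads, 26 reads stood against 2 and the ratio was 10.3 (2.59 to 89.9), and it was 267 without L and 258 without W. Fitted without the filter, MMP25 was not called (adjusted p from limma 0.108). PTPRC (CD45) and CD68 were likewise highest in untreated J, at 109.7 and 2437 normalized counts, against 3.21 and 685 in treated J. In contrast, CSF1R and TYROBP were lowest among the untreated libraries in J, at 1.35 each, CD163 was at 0 there, and ITGAM was highest in untreated W, at 51.7 against 20.9 in J. PTPRC had a log2 fold change of -1.90, with an adjusted p of 0.112 from limma and 0.0403 from DESeq2 with the horse. The part of leukocytes in the values of ADAM8 and MMP25 was not tested.

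**Figure D4:**
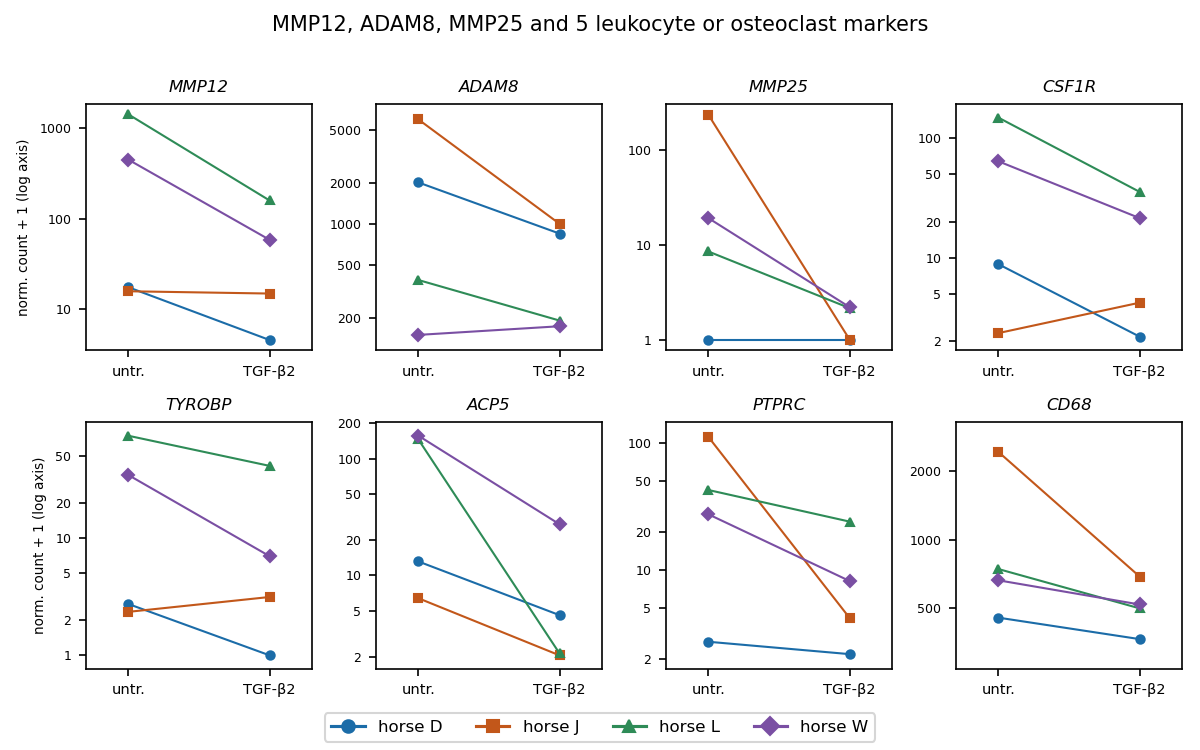
Normalized count + 1 (log axis, scaled per panel) of MMP12, ADAM8, MMP25 and of 5 leukocyte or osteoclast markers in the untreated and treated library of each horse. Among the untreated libraries L and W are the highest for MMP12, CSF1R, TYROBP and ACP5, and untreated J is the highest of all 8 for ADAM8, MMP25, PTPRC and CD68.

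Genes that activate, inhibit, clear or place these enzymes were taken from a list of 35, of which 24 were listed and tested. Of these, 4 were called higher and 4 lower, 33.3% beside 14.1% of all tested genes, and without the block the calls numbered 8 as well, beside 11.5%. The list was chosen with earlier results of these data known, so these shares are not support for a change of the list as a whole. Among activators, PCSK7, a furin-type convertase, rose by 1.20 on the log2 scale (adjusted p 0.00286 from limma), while FURIN itself stood at 0.67 (0.00589), under the fold threshold. The plasminogen activator PLAU (urokinase) had 38024, 18012, 52657 and 68406 normalized counts untreated and 17353, 17915, 16754 and 17456 treated, with nearly equal treated libraries and hardly any difference in J. Its log2 fold change was -1.19 (adjusted p 0.0426), and the call was lost without D, L or W (0.135, 0.128 and 0.154). The urokinase receptor PLAUR rose by 1.49 (adjusted p 0.00977, but 0.055 without D and 0.0617 without W).

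Among inhibitors other than TIMPs and genes of clearance, THBS2 (thrombospondin-2), which binds MMP2 for uptake through LRP1, rose by 4.02 (adjusted p 0.001 from limma), and LRP1 was not called (0.35, adjusted p 0.352). RECK, a membrane-anchored inhibitor of MMPs, had 2246, 1639, 2615 and 2688 normalized counts untreated and 895, 1042, 1051 and 1092 treated, a log2 fold change of -1.15 (adjusted p 0.00504), and was called with any 1 horse left out. TFPI2, a Kunitz-type serine protease inhibitor, had a log2 fold change of -2.14 (adjusted p 0.0197, but 0.0892 without D and 0.0785 without W). CAV1 (caveolin-1), which takes part in the uptake of MMP14, had a log2 fold change of -1.28 (adjusted p 0.00654). PAPPA, a metalloproteinase that cuts IGFBP4, rose by 2.43 (adjusted p 0.0125, but 0.062 without W). The procollagen C-proteinase BMP1 stood at 0.99 (adjusted p 0.0176), just under the fold threshold. None of the 6 listed genes of sheddase trafficking, RHBDF1 and 5 tetraspanins, was called with all 4 horses, beside 14.1% of all tested genes. RHBDF1 was lower and TSPAN14 higher in all 4 horses without overlap, both short of the fold threshold. Their log2 fold changes were -0.62 and 0.45 (adjusted p from limma 0.0072 and 0.0106). TSPAN15 was called lower without horse L (-1.61, adjusted p 0.0351). Over the 6 genes the log2 fold changes with all 4 horses were -1.08 to 0.45.

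When libraries were scaled to the same total, the log2 change of the median gene was -0.30. Of the 46 genes, 11 then passed the thresholds upwards and 12 downwards, and higher calls made up 27.6% of calls over all genes, against 48.3% with the deposited size factors. TIMP3, ADAM8, ADAMTS12, ADAMTS17 and ADAMTSL5 were then called lower, and MMP28 was not called. TIMP1 and ADAM17 changed sign under this scaling, to -0.13 and -0.27, and were not called under either.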

How the data were processed

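Poly(A) RNA of 8 equine BM-MSC cultures was sequenced in read pairs by the study. The authors used Trimmomatic 0.36 for trimming and STAR 2.5.2b for alignment to EquCab 3.0, counted reads per gene with featureCounts (Subread 1.5.2) and divided the counts of each library by a DESeq2 size factor. The deposited values are these normalized counts (a signal per gene, in counts divided by size factors), and they were used here as deposited. Every value came out as a whole number of reads within 0.01 of a read, which gave 39184554 to 57228675 reads per library. A gene at 3 reads thus lies at 2.02 to 3.60 normalized counts. One row without a gene name held 0.028 to 0.053% of the reads and was left out.

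The members and the marker and pathway lists were chosen with earlier results of these data known. Genes that reached 10 normalized counts in 4 or more libraries were tested with limma 3.58.1 (R 4.3.3, trend) on log2(normalized count + 1), with the horse as a block and Benjamini-Hochberg adjustment over 14907 genes. Calls required both a log2 fold change beyond 1 in size and an adjusted p below 0.05. The horse pairs the samples because each marrow was split. The deviations of same-horse libraries from their group means correlated at 0.525, 0.386, 0.399 and 0.609 in D, J, L and W. Between different horses the mean was -0.159, which largely follows from subtracting the group means and is no separate baseline. The authors' methods name a DESeq2 test without stating a horse term. Alternatives were edgeR 4.0.16 and DESeq2 1.42.0 on the recovered reads, other scalings, filters, pseudocounts and thresholds, and leaving out each horse. The methods were tested on simulated data. In these the horses differed in level but not in their response to treatment, so differences in response were not covered. The cultures of 4 horses are biological replicates, 1 library each.

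The rule for named genes was every member called with or without the horse term, every TIMP, the enzymes MMP2, MMP9, MMP13, MMP14, ADAM10, ADAM17, ADAMTS1, ADAMTS4 and ADAMTS5, and every called pathway gene. A further part of the rule, the 3 members of each family with the most counts per kilobase, could not be applied without transcript lengths. The other members, and FURIN, LRP1 and BMP1, were named after their values were seen. One gene of the pathway list is not reported here and was left out of its counts. Exact intervals of read ratios cover counting error only, and these ratios without each horse were added after seeing the data. Genes were matched to the RefSeq table of TB-T2T, another assembly than EquCab 3.0, by symbol, and 48 of the 49 had an entry. Transcript lengths and sequences were not used here, so levels were not compared between genes.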

Additional observations from a re-analysis of the deposited data

Results flagged for a closer look

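In 3 of 58 groups of 4 libraries (29 named genes in 2 groups), 1 library lay apart from the other 3 by a larger part of the group's whole range than Dixon's test allows at the 95% level. Chance alone gives about 1 such group in 20. ADAM23 in the untreated library of horse D had 37.41 normalized counts, against 90.3 to 98 in the other untreated libraries (gap of 0.873 of the range). ADAMTS1 in the treated library of horse L had 835.8, against 455 to 513 in the other treated libraries (0.848). TIMP4 in the untreated library of horse W had 298.3, against 125.3 to 141.8 in the other untreated libraries (0.905). Without the horse concerned, the log2 fold change of ADAM23 was 2.72 (adjusted p from limma 0.0303) and that of TIMP4 -1.06 (0.0818, no longer called). ADAMTS1 was at -0.95 (0.0782) without horse L.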

How the results depend on the processing

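With 4 horses and 1 library per culture, the paired fit has 3 residual degrees of freedom, and calls of genes with few reads or large differences between horses depended on the settings. Without the replicate block 8 members were higher and 5 lower (13 in all), and all genes called numbered 1709 rather than 2108. This lost MMP1, MMP23B, MMP28, MMP12, ADAM11 and ADAMTS9. Leaving out 1 horse gave 7 to 12 members higher, 3 to 9 lower, 4 to 10 pathway genes (5 without D and 4 without W, rather than 8) and 1080 to 2442 of all genes. Total scaling gave 12 members lower, and a split of 697 higher and 1832 lower over all genes, while TIMP1 stood at -0.13 and ADAM17 at -0.27 on the log2 scale. At an adjusted p under 0.01, 7 members were higher and 2 lower, with 5 pathway genes and 1116 of all genes, and without a fold threshold 4610 of all genes were called. With 1 horse left out, the log2 fold change of ADAM17 was -0.0015 to 0.072 and that of MMP2 -0.57 to 0.048. With the horse as a term, edgeR called 11 members higher and 6 lower (13.8% of all genes), and DESeq2 13 and 10 (15.7%). DESeq2 without the horse, which is closest to the authors' stated test, called 8 and 8 (13.8%), losing ADAMTS9, MMP1, MMP12, MMP23B and MMP28 and gaining ADAMTS17 and TIMP3. MMP12 was also lost at a pseudocount of 5, and ADAM11, ADAM22 and MMP12 without the intensity trend. ADAM11, ADAM22 and MMP1 were not tested with a filter at 50. The cause of these differences was not tested.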
